A study of Mus musculus with 12 samples.

Results

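The genotype by LPS interaction asks, gene by gene, whether macrophages homozygous for the D316Y substitution in COQ6 respond to LPS by more or by less than wild-type (WT) macrophages do. It was computed from all 12 libraries as the D316Y minus WT difference with LPS, minus the same difference without LPS. On the log2 scale a value of 1 therefore means that the ratio of LPS to unstimulated was 2-fold higher in D316Y. For a gene that LPS lowered in both genotypes, a value above 0 means a smaller fall in D316Y. It was taken for the 11918 genes, of 12441 in all, whose mean reached 0 log2 CPM in at least 1 group, where log2 CPM is the log2 of the read count scaled to library size. The cells were bone marrow-derived macrophages of the mouse, grown for 6 days in L929-conditioned medium, which supplies macrophage colony-stimulating factor. The 4 groups, each of 3 libraries, were WT unstimulated, WT after 24 h with 100 ng/mL lipopolysaccharide (LPS), D316Y unstimulated and D316Y after 24 h with 100 ng/mL LPS. All 4 groups had the same culture protocol. The 24 h libraries record a late stage of the response. Strain, age and sex of the mice do not appear in the labels.

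LPS is a lipid of the outer membrane of Gram-negative bacteria that macrophages detect through Toll-like receptor 4. The receptor signals first through MYD88 to NF-kB and the inflammatory cytokines, and from endosomes through TRIF to IRF3, which switches on interferon beta. Secreted interferon then acts back on the cells through its receptor and factors that include STAT2 and IRF9, which bind the interferon-stimulated response element (ISRE) in the promoters of antiviral genes. COQ6 is a flavin-dependent monooxygenase that adds a hydroxyl group to the ring of coenzyme Q, the electron carrier of the mitochondrial respiratory chain.

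Libraries held 32.8 to 47.2 M reads over the genes of the table. All 19 macrophage markers were expressed, and their mean lay between 8.56 and 9.19 log2 CPM in every library. Adgre1, which encodes the macrophage surface protein F4/80, had group means from 10.43 to 12.06 log2 CPM, and Csf1r, the receptor for macrophage colony-stimulating factor, from 10.69 to 11.13. None of the 15 lymphoid, mast cell and erythroid markers was among the genes analysed. Of 17 neutrophil markers 9 were, and their list mean lay between 0.94 and 3.58 log2 CPM. Unstimulated replicate 1 of each genotype stood apart from the other unstimulated libraries. Mitochondrially encoded genes took 0.449% of the reads in WT unstimulated replicate 1 and 0.949% in D316Y unstimulated replicate 1, against 1.97% to 2.97% in the other 4 and 0.658% to 1.10% with LPS. Of 10 stromal markers 3 were tested (Kdr, Sparc and Pecam1), and their mean was 1.44 log2 CPM in WT unstimulated replicate 1. In the other 5 libraries without LPS it ran from -0.35 to 0.07.

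LPS changed much of the transcriptome in each genotype, every gene called in both changed in the same direction, and no gene passed the test of a different response. In WT macrophages 4347 genes (36.5% of those tested) passed an adjusted p of 0.05 by limma, 2116 higher (17.8%) and 2231 lower (18.7%) with LPS. In D316Y macrophages 4543 (38.1%) passed, 2294 higher (19.2%) and 2249 lower (18.9%). The 3645 genes called in both genotypes were 83.9% of the WT calls and 80.2% of the D316Y calls, and all 3645 changed in the same direction. Of the 702 genes called in WT alone, 685 had the same sign in D316Y, and of the 898 called in D316Y alone, 872 had the same sign in WT. Across the 11918 genes the 2 responses, which share no library, had a Pearson correlation of 0.954 and a Spearman correlation of 0.897. Genes are not independent replicates, so these describe the libraries.

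For the interaction itself, 0 of 11918 genes passed (0%; limma, Benjamini-Hochberg), and the smallest adjusted p was 0.999. At an unadjusted p under 0.05 there were 251 genes (2.11%), 169 with an interaction above 0 (1.42%) and 82 below 0 (0.688%). At an unadjusted p under 0.01 there were 30 (0.252%). Weighting by recovered reads (limma-voom) also called 0 genes, with 254 at an unadjusted p under 0.05. Of the 1600 genes called in only 1 genotype, 100 (6.25%) had an interaction p under 0.05 before adjustment, against 2.11% of all genes, and none passed. The calls and the interaction come from the same libraries, so this share is a description, and a call in 1 genotype alone does not show that the responses differ.

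**Figure D1:**
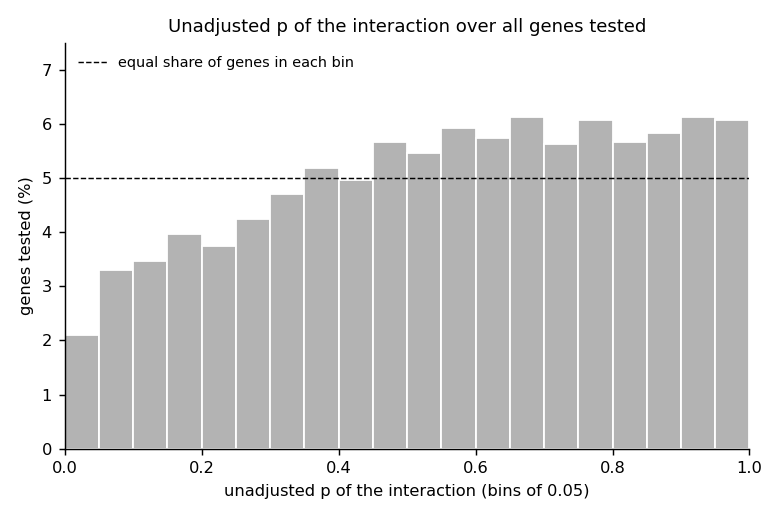
Share of the 11918 genes (y axis, %) in each bin of 0.05 of the unadjusted interaction p (x axis). The dashed line marks 5%, the share each bin would hold if p-values were spread evenly. The lowest bin holds 2.11% of the genes, the smallest share of all bins.

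At the median, the interaction was smaller in size than the LPS response and than its own error. The median size of the response was 0.41 in WT and 0.42 in D316Y on the log2 scale. The interaction had a median of 0.01, a median size of 0.17 and a median standard error (SE) of 0.30. The middle of the distribution, from the 5th to the 95th percentile, ran from -0.55 to 0.54. A size of at least 1 was reached by 264 genes, 128 of which averaged 1 log2 CPM or more in some group, and a size of at least 2 by 24. For the median gene the 95% confidence interval reached 0.64 to either side, a 1.56-fold difference in response. For 7706 genes (64.7%) that interval lay wholly between -1 and 1. Among the 2330 genes that LPS changed by at least 1 log2 unit on average, it did so for 980 (42.1%), so for most LPS-responsive genes a 2-fold difference in response was not excluded at this replication.

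**Figure D2:**
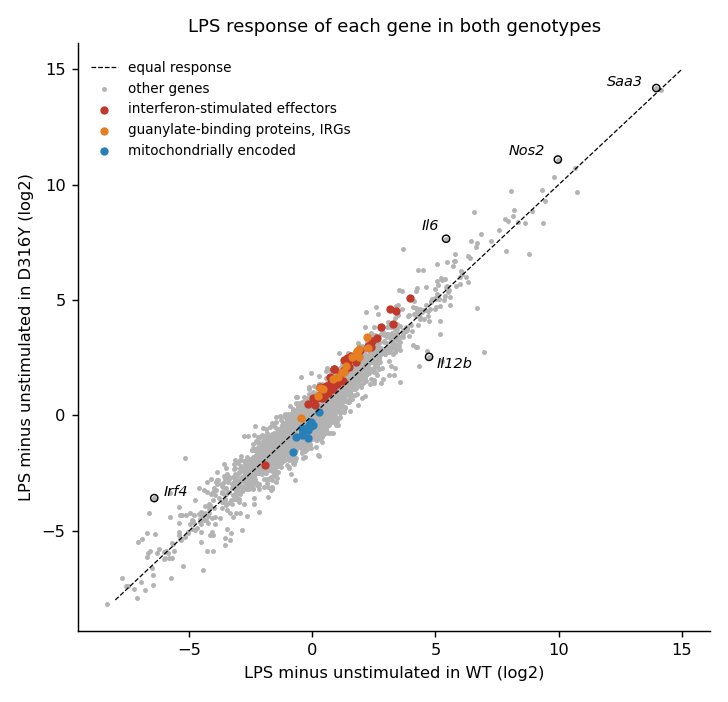
LPS minus unstimulated difference of each of the 11918 genes in WT (x axis, log2) and in D316Y (y axis, log2), with points on the dashed line where both are equal. Interferon-stimulated effectors (red) and guanylate-binding proteins and immunity-related GTPases (IRGs, orange) lie mostly above the line, mitochondrially encoded genes (blue) below it, and Il6, Nos2, Saa3, Il12b and Irf4 are circled.

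Genes were grouped by their mean response over both genotypes. The 1063 genes that LPS raised at least 2-fold (8.92% of those tested) had a median interaction of 0.12, and 685 of them (64.4%) lay above 0, against a median of 0.01 and 51.7% over all genes. The 107 genes raised by at least 4 log2 units had a median of 0.20, with 70 above 0. The 1267 genes that LPS lowered at least 2-fold (10.6%) had a median of -0.02, with 598 above 0, and the 9588 others a median of 0.00. In the raised genes the D316Y minus WT difference had a median of -0.16 at rest and -0.00 with LPS.

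For Coq6 itself no change with LPS was detected in either genotype, and no difference between them. It stood at 3.52, 3.49 and 3.45 log2 CPM in WT unstimulated replicates 1, 2 and 3, and at 3.40, 3.65 and 3.65 with LPS. In D316Y it stood at 3.71, 3.37 and 3.60 without LPS and 3.81, 3.41 and 3.53 with it. The 4 groups overlapped, and the interaction was -0.06 (SE 0.21, 95% confidence interval -0.52 to 0.40). Coq6 lies on chromosome 12 at 84361657 to 84373796 (GRCm38). A missense change need not alter the RNA level, so these values do not check the genotype labels.

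Among the gene lists, those of interferon targets had the largest medians. Promoters of 3 of them are printed to show the element through which STAT2 and IRF9 act: the guanylate-binding protein gene Gbp3, the immunity-related GTPase gene Irgm1 and the translation inhibitor gene Ifit1. Each window holds the 250 bases before and 50 after the annotated start (RefSeq, GRCm38.p6), read 5′ to 3′ on the gene's strand: chr3:142559794-142560093 on the plus strand, chr11:48871371-48871670 on the minus strand and chr19:34640639-34640938 on the plus strand. Capitals mark each match, on either strand, to the core of the ISRE (GAAA, 2 bases of any kind and GAAA again), and overlapping matches run together.
Gbp3: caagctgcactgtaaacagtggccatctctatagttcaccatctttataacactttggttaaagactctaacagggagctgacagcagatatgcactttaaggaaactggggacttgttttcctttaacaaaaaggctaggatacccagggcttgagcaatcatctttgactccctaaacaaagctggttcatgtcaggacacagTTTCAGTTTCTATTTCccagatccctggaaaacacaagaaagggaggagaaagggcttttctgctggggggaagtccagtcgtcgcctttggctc
Irgm1: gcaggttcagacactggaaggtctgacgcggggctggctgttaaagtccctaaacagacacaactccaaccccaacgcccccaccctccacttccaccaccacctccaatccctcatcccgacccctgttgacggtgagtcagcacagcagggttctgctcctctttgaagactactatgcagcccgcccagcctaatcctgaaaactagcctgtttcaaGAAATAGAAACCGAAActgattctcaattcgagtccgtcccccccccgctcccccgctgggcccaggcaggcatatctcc
Ifit1: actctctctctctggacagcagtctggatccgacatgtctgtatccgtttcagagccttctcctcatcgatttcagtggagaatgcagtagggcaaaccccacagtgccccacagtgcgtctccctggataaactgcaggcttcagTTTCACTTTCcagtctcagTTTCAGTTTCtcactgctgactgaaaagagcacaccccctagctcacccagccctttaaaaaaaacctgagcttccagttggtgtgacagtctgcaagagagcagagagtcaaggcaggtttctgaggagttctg
Gbp3, Irgm1 and Ifit1 were chosen among members that hold a match. Each holds 2 matches, which begin 39 and 45, 24 and 30, and 85 and 104 bases before the start. Slfn8 and Tgtp2, whose promoters are not printed, hold 1 match each. Among genes tested, 8690 had a promoter in the table and 361 of them (4.15%) held a match. Over all 32851 promoter windows of that length the share was 3.44%. In the list of guanylate-binding proteins and immunity-related GTPases 9 of 10 genes with a promoter held one, among type I interferon-stimulated effectors 18 of 41 (43.9%), and among genes that LPS raised at least 2-fold 86 of 749 (11.5%). The gamma-activated site TTCNNNGAA, searched on both strands, was in 724 of the 8690 (8.33%) and overlapped an ISRE match in 12 genes. In the effectors it was found in 7 of 41, and in the guanylate-binding protein list in 5 of 10. A match is a description of the letters and no measure of binding.

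Type I interferon-stimulated antiviral effectors rose with LPS in both genotypes, and 51 of 52 had an interaction above 0. LPS raised 37 of the 52 in WT and 50 in D316Y, against 17.8% and 19.2% of all genes, and lowered Ifi27 in both. The median response was 0.92 in WT and 1.49 in D316Y, and the median interaction was 0.65, against 0.01 over all genes and 0.12 over all raised genes. Among the 1063 raised genes, 55 above 0 and 9 below 0 had an unadjusted p under 0.05. None of the 52 effectors passed the interaction test, and 10 had such an unadjusted p, against 2.11% of all genes. Where the difference arose can be read from the list mean in each library. Without LPS it was 7.04, 6.42 and 6.40 log2 CPM in WT and 6.08, 5.70 and 6.43 in D316Y. With LPS it was 7.69, 7.78 and 7.91 in WT and 7.99, 8.08 and 7.65 in D316Y. The genotypes overlapped both at rest and with LPS, since D316Y unstimulated replicate 3 lay between WT replicates 2 and 1. The median D316Y minus WT difference was -0.52 at rest and 0.08 with LPS. Most of the interaction thus lay in the resting libraries.

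**Figure D3:**
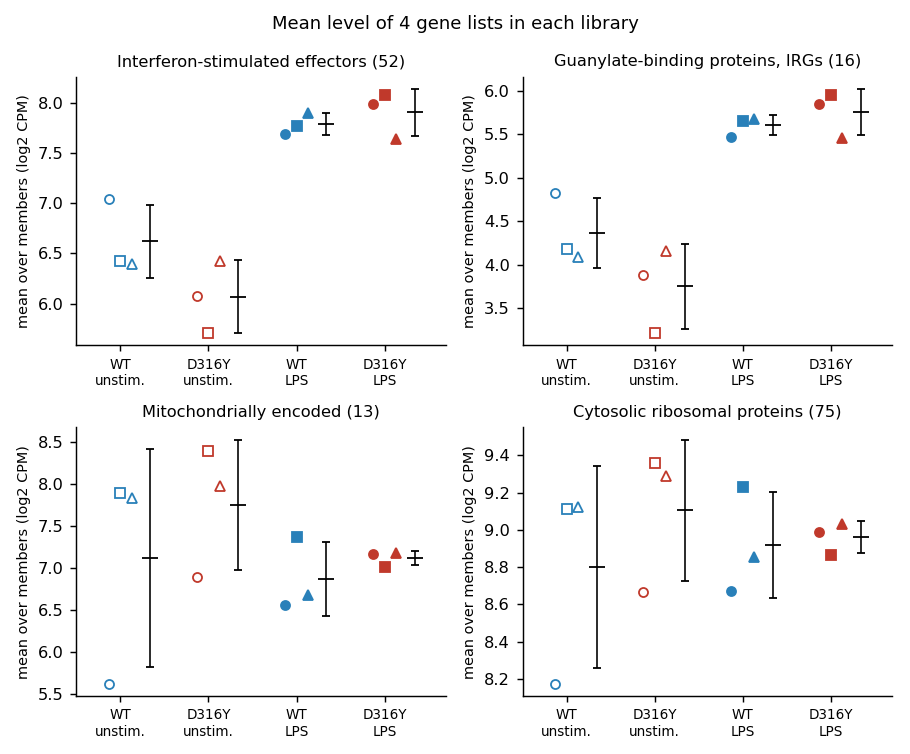
Mean level over the members of 4 gene lists (y axis, log2 CPM) in each of the 12 libraries, by group (x axis), with circles, squares and triangles for replicates 1, 2 and 3 and bars for the group mean ± SD. Interferon-stimulated effectors and guanylate-binding proteins are higher with LPS in both genotypes and lowest in D316Y unstimulated replicate 2, where mitochondrially encoded and ribosomal protein genes are highest.

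The mitochondrial share of reads also differed between the resting libraries, and its part in the result was not tested beyond a fit with that share as a covariate. The library with the highest effector level at rest, WT replicate 1, had the lowest mitochondrial share (0.449%), and the one with the lowest level, D316Y replicate 2, had the highest (2.97%). That order did not hold throughout. D316Y replicate 1 had the next lowest share (0.949%) and an effector mean of 6.08 log2 CPM, below all 3 WT libraries at rest. With the share as a covariate the median interaction of the list was 0.58. It was 0.41 without WT unstimulated replicate 1, 0.78 without D316Y unstimulated replicate 3 and 0.44 without both unstimulated replicate 1 libraries. The 3 stromal markers had interactions of 0.83 (Kdr, SE 0.59), 0.64 (Sparc, SE 0.75) and -0.31 (Pecam1, SE 0.74). Their median of 0.64 was thus the value of Sparc. The median was 0.12 without WT unstimulated replicate 1 and -0.01 without both unstimulated replicate 1 libraries, while Pecam1 was -1.01 without the former. The part of these markers in the result was not tested. In bulk RNA, fewer cells that respond to interferon and less RNA per cell cannot be told apart.

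Slfn1, a Schlafen family gene of the interferon response (chromosome 11, 83116849 to 83122670), had one of the smaller p-values of the list. It stood at 3.66, 2.96 and 3.41 log2 CPM in resting WT and 2.65, 2.01 and 2.82 in resting D316Y, which did not overlap. With LPS it reached 7.07, 7.22 and 7.66 in WT and 7.85, 7.85 and 7.07 in D316Y, which overlapped. LPS raised it 15.7-fold in WT and 34.2-fold in D316Y, an interaction of 1.12 (SE 0.38, limma adjusted p = 0.999). Its neighbour Slfn4 (83175186 to 83190216) rose from 2.54, 1.98 and 2.38 log2 CPM to 4.79, 5.78 and 5.82 in WT, and from 1.86, 1.71 and 2.23 to 6.85, 6.98 and 5.76 in D316Y. Here D316Y LPS replicate 3 lay among the WT libraries while replicates 1 and 2 lay above all 3. The interaction of Slfn4 was 1.44 (SE 0.46, limma adjusted p = 0.999).

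Ifit1 stood at 8.12, 7.03 and 7.17 log2 CPM in resting WT and 6.69, 6.04 and 7.17 in resting D316Y, against 9.20, 9.43 and 9.48 and 9.55, 9.74 and 9.05 with LPS. The genotypes overlapped in both conditions. LPS raised it 3.81-fold in WT and 7.04-fold in D316Y, with an interaction of 0.89 (SE 0.44). The antiviral GTPase genes Mx2 and Mx1 had interactions of 1.12 and 1.00, the mitochondrial nucleotide kinase Cmpk2 1.12, the ubiquitin-like modifier Isg15 0.73 and the antiviral radical enzyme Rsad2 0.92. At the other end stood the membrane restriction factor Ifitm3 at 0.22 and Ifi27 at -0.20.

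Guanylate-binding proteins and immunity-related GTPases, which attack the vacuoles of intracellular pathogens, all had an interaction above 0. LPS raised 12 of 16 in WT and 15 in D316Y, against 17.8% and 19.2% of all genes, with median responses of 1.33 and 2.01. The median interaction was 0.72 and the range 0.36 to 1.18. Of the 16, 6 had an unadjusted p under 0.05, against 2.11% of all genes. Their list mean was 4.83, 4.18 and 4.09 log2 CPM in resting WT and 3.88, 3.21 and 4.16 in resting D316Y. With LPS it was 5.47, 5.66 and 5.68 in WT and 5.85, 5.95 and 5.45 in D316Y, so the genotypes overlapped in both conditions. The median difference between genotypes was -0.62 at rest and 0.13 with LPS. The median interaction was 0.48 without WT unstimulated replicate 1 and 0.89 without D316Y unstimulated replicate 3. With the mitochondrial share as a covariate it was 0.65.

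Gbp9 had the smallest p of that list. It stood at 5.10, 4.38 and 4.61 log2 CPM in resting WT and 4.30, 3.91 and 4.23 in resting D316Y, and the latter lay below all 3 WT libraries. With LPS the values were 5.0, 4.75 and 5.32 in WT and 5.27, 5.53 and 5.18 in D316Y, which overlapped. The response passed in D316Y (2.26-fold, limma adjusted p = 0.000353) and not in WT (1.26-fold, adjusted p = 0.221), and the interaction was 0.85 (SE 0.28, limma adjusted p = 0.999). Gbp9 (chromosome 5, 105077630 to 105139539) overlaps Gbp4 (105115767 to 105139586), so reads of the 2 genes may be shared, and Gbp4 had an interaction of 0.98. Gbp3 and Irgm1, whose promoters are printed above, had interactions of 0.77 and 0.73. Tgtp1 and Tgtp2, with 0.92 and 0.97, are near-identical copies whose reads cannot be told apart with certainty.

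Genes that make and relay the interferon signal were counted apart from the effectors. Ifnb1, which encodes interferon beta, rose by 4.13 in WT and 4.41 in D316Y, with an interaction of 0.29 (SE 0.68). The receptor chains Ifnar1 and Ifnar2 rose in both genotypes and had interactions of 0.35 and 0.33. Among 23 receptors, kinases and transcription factors of interferon signalling 22 lay above 0, with a median of 0.24, and the difference from the effector median of 0.65 was not tested. Stat2 stood at 7.48, 6.95 and 6.82 log2 CPM in resting WT, 6.44, 6.23 and 6.83 in resting D316Y, 8.25, 7.95 and 8.35 in LPS-treated WT and 8.40, 8.64 and 8.14 in LPS-treated D316Y. Both conditions overlapped between genotypes, and its interaction was 0.80 (SE 0.30). Irf7, which amplifies interferon production, had 0.78, Irf9 0.24 and Irf3 0.14.

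Irf4 was the exception in size. This transcription factor of alternative macrophage activation and of lymphocytes (chromosome 13, 30749226 to 30766976) drew 112, 83 and 67 reads in resting WT and 107, 88 and 54 in resting D316Y. With LPS the WT libraries held 2, 0 and 0 reads and those of D316Y 4, 2 and 8. LPS thus left it at or near the floor in both genotypes, with all 3 D316Y libraries at or above the highest WT library. The interaction was 2.84 (SE 0.99, limma adjusted p = 0.999), and at these reads its size depends on the count added before taking logs. All 3 WT libraries with LPS lay under the floor of 3 reads per library.

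Cytosolic nucleic acid sensors had a median interaction of 0.40, with 17 of 20 above 0 and 4 with an unadjusted p under 0.05, against 2.11% of all genes. All 4 were Ifi200-family genes: Ifi206 (1.21), Ifi213 (0.97), Ifi209 (0.76) and Ifi211 (0.71). Cgas and Tmem173, the DNA sensor and its adaptor STING, stood at -0.01 and -0.20. Genes of MHC class I presentation had a median of 0.28, with 20 of 22 above 0. LPS raised 20 of the 22 in WT and 21 in D316Y, against 17.8% and 19.2% of all genes. Nlrc5, the transactivator of class I genes, stood at 4.11, 4.22 and 3.95 log2 CPM in resting WT, 3.71, 3.63 and 4.11 in resting D316Y, 4.53, 4.42 and 4.69 in LPS-treated WT and 4.95, 5.15 and 4.77 in LPS-treated D316Y. With LPS the D316Y libraries lay above all 3 WT libraries, and at rest they overlapped. Its interaction was 0.68 (SE 0.22, limma adjusted p = 0.999). The median of the class I list was 0.10 without WT unstimulated replicate 1 and 0.43 without WT unstimulated replicate 2.

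MHC class II and costimulation genes had a median of 0.07. The class II chains H2-Aa, H2-Ab1 and H2-Eb1 fell in both genotypes, with interactions of 0.01, 0.00 and -0.03. Cd274, the inhibitory ligand PD-L1, stood at 5.23, 5.22 and 5.10 log2 CPM in resting WT and 4.76, 4.78 and 4.98 in resting D316Y, without overlap. With LPS it stood at 7.67, 7.51 and 8.04 in WT and 8.17, 8.26 and 7.72 in D316Y, with overlap. LPS raised it 5.88-fold in WT and 9.25-fold in D316Y, and the interaction was 0.65 (SE 0.24). Tnfsf10, which encodes the death ligand TRAIL, rose 3.04-fold in D316Y and had a 1.47-fold value in WT that did not pass. Its interaction was 1.05 (SE 0.34).

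**Figure D4:**
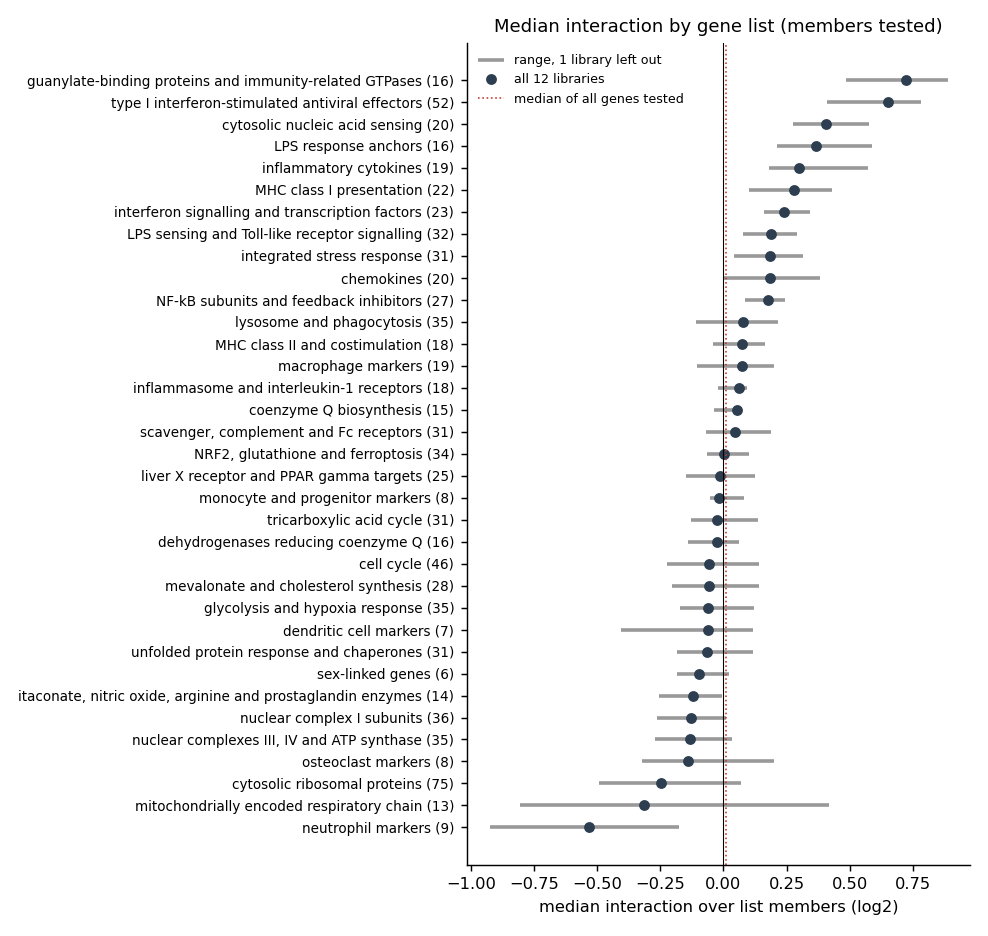
Median interaction over the tested members of each gene list with at least 5 such members (dots, x axis in log2 units, number of members in brackets) and the range of that median when each of the 12 libraries is left out in turn (grey bars). The guanylate-binding protein and interferon-stimulated lists stand highest at 0.72 and 0.65, and the bars of the mitochondrially encoded and ribosomal protein lists cross 0.

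Inflammatory cytokine genes responded strongly in both genotypes and none passed the interaction test. LPS raised 15 of 19 in each genotype, against 17.8% of all genes in WT and 19.2% in D316Y, and lowered Il10 in each. The median interaction was 0.30, with 16 of 19 above 0. Leaving out D316Y LPS replicate 2 gave 0.18 and leaving out WT LPS replicate 2 gave 0.57. Il6 and Il12a had 0 reads in all 3 resting D316Y libraries, and with both set to the floor of 3 reads per library the median was 0.23. The list mean went from 1.24, 1.15 and 1.21 to 3.50, 3.83 and 3.80 log2 CPM in WT, and from 0.79, 1.09 and 1.11 to 4.03, 4.01 and 3.75 in D316Y. The resting D316Y list means, which include Il6 and Il12a at 0 reads, lay below all 3 WT libraries, and with LPS the genotypes overlapped. The size of that resting gap depends on the count added before taking logs.

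Il12b, the subunit that interleukin-12 and interleukin-23 share, had the largest difference among cytokines in the other direction. It drew 2, 2 and 4 reads in resting WT (-4.48, -4.25 and -3.19 log2 CPM) and 24, 32 and 12 in resting D316Y (-1.09, -0.77 and -1.97). With LPS the WT libraries held 111, 43 and 68 reads and those of D316Y 72, 75 and 113, or 1.37, 0.19 and 0.73 and 0.99, 1.00 and 1.80 log2 CPM. The resting groups did not overlap and the LPS groups did. LPS raised it by 4.74 in WT and by 2.54 in D316Y, and the interaction was -2.20 (SE 0.71, 95% confidence interval -3.74 to -0.66, limma adjusted p = 0.999). Of the resting WT libraries 2 lay under the floor of 3 reads, so these sizes depend on the count added before taking logs. Il12b lies on chromosome 11 at 44400063 to 44414033.

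Il6, the fever cytokine, drew 2, 0 and 4 reads in resting WT and 0, 0 and 0 in resting D316Y. With LPS the WT libraries held 60, 80 and 57 reads and those of D316Y 89, 68 and 53, so the LPS groups overlapped. Against the floor of 3 reads per library it was at least 28.9-fold higher with LPS in D316Y. The interaction rests on counts at the floor, and its size is not read. Il1b, the inflammasome-processed cytokine, stood at 2.24, 2.00 and 1.29 log2 CPM in resting WT and 1.21, 1.28 and 1.89 in resting D316Y. With LPS it reached 10.20, 9.88 and 10.05 in WT and 10.40, 10.40 and 10.31 in D316Y, without overlap. LPS raised it 294-fold in WT and 480-fold in D316Y, and the interaction was 0.71 (SE 0.32, limma adjusted p = 0.999).

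Saa3, Acod1 and Nos2 were strongly induced in both genotypes, and the interval of each interaction included 0. Saa3, an acute-phase protein, rose from 2.48, 2.95 and 2.08 to 16.15, 16.80 and 16.45 log2 CPM in WT and from 2.04, 2.35 and 2.32 to 16.43, 16.38 and 16.48 in D316Y. The interaction of Saa3 was 0.22 (SE 0.31, 95% confidence interval -0.44 to 0.89). Acod1, which makes itaconate, rose from 3.06, 2.47 and 2.60 to 10.40, 10.28 and 10.24 log2 CPM in WT and from 2.36, 1.66 and 2.73 to 10.45, 10.39 and 10.06 in D316Y. Its interaction was 0.46 (SE 0.33, 95% confidence interval -0.26 to 1.17). Nos2, the inducible nitric oxide synthase, had 0 to 6 reads in every unstimulated library and 1156 to 3204 with LPS, and its interval ran from -1.38 to 3.63. Tnf rose in both genotypes, with an interaction of 0.15 (SE 0.29). Of 14 enzymes of itaconate, nitric oxide, arginine and prostaglandin metabolism 4 lay above 0, with a median of -0.12.

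Chemokines, Toll-like receptor components and NF-kB regulators had median interactions of 0.18 to 0.19, against 0.12 over the genes that LPS raised at least 2-fold. Of all genes LPS raised 17.8% in WT and 19.2% in D316Y, and lowered 18.7% and 18.9%. Of 32 Toll-like receptor components it raised 9 in WT and 10 in D316Y, and lowered 4 and 1. Of 27 NF-kB regulators it raised 16 in WT and 15 in D316Y, and lowered 3 and 5. LPS raised 13 of 20 chemokines and lowered 4 in each genotype, with a median interaction of 0.18 that was 0.0016 without WT LPS replicate 1 and 0.38 without D316Y LPS replicate 3. Cxcl10, an interferon-driven chemokine, had 0.93 (SE 0.56), and Ccl5, which recruits T cells, 0.49 (SE 0.35). Ccl24, an eosinophil chemokine of alternatively activated macrophages, drew 18, 24 and 20 reads in LPS-treated WT and 2, 4 and 14 in LPS-treated D316Y, which did not overlap, and 82, 82 and 64 and 72, 74 and 69 at rest. It had an interaction of -1.55 (SE 0.78), which was -0.97 without D316Y LPS replicate 1, the library with 2 reads. The sensing pathway had a median of 0.19, with 26 of 32 above 0: the receptor Tlr4 stood at 0.18 (SE 0.23), its coreceptors Cd14 at 0.02 and Ly96 at -0.23, and the adaptors Myd88 at 0.25 and Ticam1 at 0.28. For 29 of the 32 the 95% interval lay between -1 and 1. NF-kB subunits and feedback inhibitors had a median of 0.18, with 22 of 27 above 0, among them Nfkbia (0.39), Tnfaip3 (0.25) and the cytokine suppressor Socs3 (0.91, SE 0.45).

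**Figure D5:**
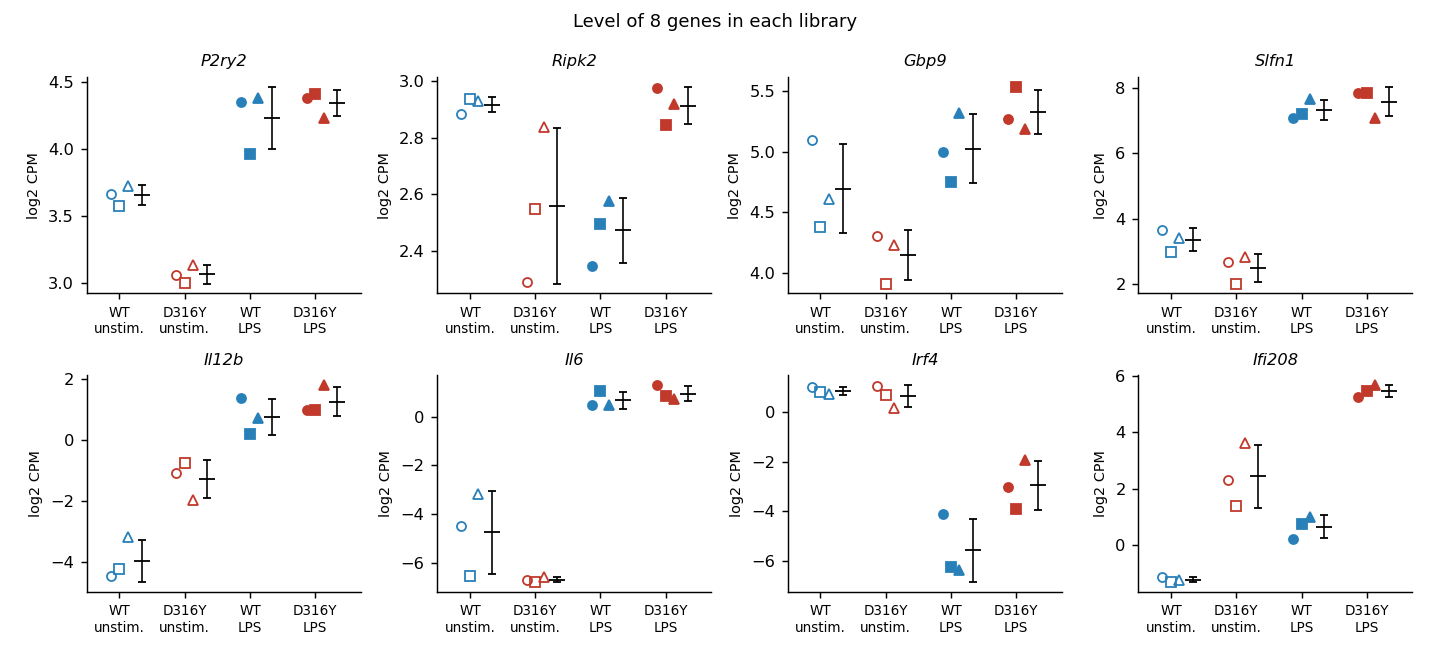
Level of 8 genes (y axes, log2 CPM, each with its own scale that does not start at 0) in each library by group (x axes), open symbols unstimulated and filled with LPS, circles, squares and triangles for replicates 1, 2 and 3, bars for mean ± SD. P2ry2 and Slfn1 differ between genotypes at rest and overlap with LPS, Ripk2 is lower in D316Y at rest and higher with LPS, and Irf4 sits higher with LPS in D316Y.

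Outside these lists the smallest p-values belonged to P2ry2 and Ripk2 among genes that averaged 1 log2 CPM or more in some group and had an interaction above 0 and no predicted, clone or pseudogene name. P2ry2, a receptor for extracellular ATP and UTP (chromosome 7, 100996568 to 101012866), stood at 3.67, 3.58 and 3.73 log2 CPM in resting WT and 3.06, 3.00 and 3.14 in resting D316Y. With LPS it stood at 4.35, 3.96 and 4.38 in WT and 4.39, 4.41 and 4.23 in D316Y. The resting groups did not overlap and the LPS groups did. It rose 1.49-fold in WT and 2.42-fold in D316Y, an interaction of 0.70 (SE 0.20, 95% confidence interval 0.27 to 1.13, limma adjusted p = 0.999). Ripk2, the kinase that relays the bacterial sensors NOD1 and NOD2 (chromosome 4, 16122733 to 16163647), stood at 2.89, 2.94 and 2.93 log2 CPM in resting WT and 2.35, 2.50 and 2.58 with LPS, a fall that passed (limma adjusted p = 0.0463). In D316Y it stood at 2.29, 2.55 and 2.84 and then 2.98, 2.84 and 2.92, a 1.28-fold value that did not pass (adjusted p = 0.103). Neither the resting nor the LPS groups overlapped, and the interaction was 0.80 (SE 0.23, limma adjusted p = 0.999).

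Other genes with an interaction above 0 were Tppp3, a tubulin-binding protein (1.70, SE 0.53), and Thbd, the anticoagulant receptor thrombomodulin (0.93, SE 0.30). Thbd fell from 2.95, 2.80 and 3.00 to -0.16, -0.27 and 0.17 log2 CPM in WT and from 2.73, 2.97 and 2.66 to 0.47, 0.63 and 1.05 in D316Y. The LPS groups of Thbd did not overlap, and the resting groups did. None of these passed the interaction test. Over the 141 genes of the naming rule the lowest limma adjusted p in any alternative was 0.17, with estimated library weights.

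Below 0, under the same limits on level and name, the smallest p belonged to Wfdc21, a small secreted protein of the acute phase (chromosome 11, 83746940 to 83752642). It drew 2, 6 and 2 reads in resting WT and 11, 11 and 14 in resting D316Y, which did not overlap. With LPS it reached 4.73, 5.38 and 4.86 log2 CPM in WT and 4.87, 4.73 and 5.21 in D316Y, which overlapped. Its interaction was -1.79 (SE 0.51, limma adjusted p = 0.999), a size that depends on the count added, since 2 resting WT libraries lay under 3 reads. Ptchd1, a membrane protein of the Patched family, drew 190, 421 and 300 reads in resting WT and 479, 491 and 253 in resting D316Y. With LPS it drew 10, 10 and 13 in WT and 4, 1 and 2 in D316Y, without overlap, for an interaction of -2.27 (SE 0.66). Of these D316Y libraries 2 lay under the floor of 3 reads, so the size of the Ptchd1 interaction also depends on the count added. Grk5, a kinase of G protein-coupled receptors, stood at 1.39, 0.95 and 1.58 log2 CPM in resting WT and 2.00, 2.05 and 1.79 in resting D316Y. With LPS the order turned, to 2.11, 2.04 and 2.00 in WT and 1.90, 1.71 and 1.39 in D316Y, with no overlap in either condition, and the interaction was -1.02 (SE 0.30).

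The smallest p of all genes belonged to the predicted gene Gm5251, named here after its values were seen. It drew 0 reads in all 3 resting WT libraries, 6, 8 and 2 in resting D316Y, 56, 48 and 53 in LPS-treated WT and 38, 18 and 18 in LPS-treated D316Y (limma adjusted p = 0.999).

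The 7 genes that an earlier analysis of these libraries had called between the genotypes did not pass the interaction test either. Ifi208, an interferon-inducible Ifi200-family gene, drew 25, 19 and 17 reads in resting WT and 260, 145 and 597 in resting D316Y, then 50, 63 and 83 and 1395, 1671 and 1650 with LPS. The genotypes did not overlap in either condition. LPS raised it 3.68-fold in WT and 8.12-fold in D316Y, and the interaction was 1.14 (SE 0.58, 95% confidence interval -0.11 to 2.40). It was 0.62 without D316Y unstimulated replicate 2 and 1.73 without D316Y unstimulated replicate 3. Rab4a, a GTPase of endosomal recycling, had -0.58 (SE 0.38), which was -0.26 without D316Y LPS replicate 2 and -0.36 without D316Y unstimulated replicate 1. The other members included the insulin-degrading protease Ide at -0.03 (SE 0.30), the sterol reductase Dhcr7 at -0.17 (SE 0.33) and the processed transcript G530011O06Rik at 0.06 (SE 0.50). For Ide the interval was -0.68 to 0.62 and for Dhcr7 -0.88 to 0.55.

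Mitochondrially encoded genes had interactions below 0 in 13 of 13, with a median of -0.31, and 0 had an unadjusted p under 0.05. Their list mean was 5.62, 7.89 and 7.83 log2 CPM in resting WT, 6.88, 8.38 and 7.97 in resting D316Y, 6.56, 7.36 and 6.67 in LPS-treated WT and 7.16, 7.01 and 7.17 in LPS-treated D316Y. WT unstimulated replicate 1 lay more than 2 log2 units below the other WT libraries at rest. Without it the median was 0.42, and without D316Y unstimulated replicate 1 it was -0.81. Cytosolic ribosomal protein genes lay below 0 in 71 of 75, with a median of -0.25 that was 0.07 without WT unstimulated replicate 1 and -0.49 without D316Y unstimulated replicate 1. Leaving out WT unstimulated replicate 1 was the only one of 24 alternatives that turned the sign of either list. Without both unstimulated replicate 1 libraries the medians were -0.09 and -0.16. In each of the 3 same-numbered pairs of resting libraries both list means were higher in D316Y than in WT.

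Many nuclear genes of the respiratory chain rose with LPS, fewer by count in D316Y, a difference that was not tested. LPS raised 26 of 36 complex I subunits in WT and 20 in D316Y, against 17.8% and 19.2% of all genes, with median responses of 0.64 and 0.57, and 31 had an interaction below 0 (median -0.13). Of 35 subunits of complexes III, IV and ATP synthase it raised 26 in WT and 17 in D316Y, with 29 below 0 (median -0.13). Without WT unstimulated replicate 1 these medians were 0.01 and 0.03. The pathway to which COQ6 belongs showed no common direction: 8 of 15 coenzyme Q biosynthesis genes lay above 0, with a median of 0.05. The prenyltransferase Coq2 (0.39, SE 0.33) rose in both genotypes, the atypical kinase Coq8b stood at 0.38 (SE 0.22), and the ferredoxin reductase Fdxr at -0.54 (SE 0.38). For 12 of the 15 the 95% interval lay between -1 and 1. The 16 dehydrogenases that reduce coenzyme Q ran from Sqor at -0.22 to Prodh at 0.51, with a median of -0.03.

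Of 31 regulators and effectors of the integrated stress response 24 lay above 0, with a median of 0.18. Among them 3 had an unadjusted p under 0.05, against 2.11% of all genes. Chac1, which degrades glutathione, stood at 2.13, 1.60 and 2.20 log2 CPM in resting WT and 1.15, 1.06 and 0.83 in resting D316Y, without overlap. With LPS it stood at -0.16, 0.23 and -0.06 in WT and -0.12, 0.39 and 0.12 in D316Y, with overlap. LPS lowered it in both genotypes, and the interaction was 1.10 (SE 0.36, limma adjusted p = 0.999). Trib3, a pseudokinase induced by ATF4, had 0.94 (SE 0.36), and the phosphatase subunit Ppp1r15b 0.61 (SE 0.26). Without D316Y unstimulated replicate 2 the list median was 0.04.

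Medians of the remaining functional lists lay close to 0. LPS lowered 44 of 46 cell cycle genes in each genotype, against 18.7% of all genes in WT and 18.9% in D316Y. Their median responses were -1.85 in WT and -1.90 in D316Y, and their median interaction was -0.06. Of 35 glycolysis and hypoxia genes LPS raised 26 in WT and 25 in D316Y, against 17.8% and 19.2% of all genes. Their median interaction was -0.06. NRF2, glutathione and ferroptosis genes had a median of 0.00 over 34 genes, unfolded protein response genes -0.07 over 31 and lysosome genes 0.08 over 35. Liver X receptor and PPAR gamma targets had a median of -0.01, inflammasome genes 0.06, and scavenger, complement and Fc receptors 0.04. Marker lists gave medians of 0.07 for macrophages, -0.02 for monocytes and progenitors, -0.06 for dendritic cells, -0.14 for osteoclasts, 0.64 for the 3 stromal genes and -0.53 for 9 neutrophil genes, of which Mmp9 (-0.97, SE 0.34) had an unadjusted p under 0.05. Neutrophil and osteoclast lists share Mmp9, and macrophages express it too. No member of any list passed.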

How the data were processed

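RNA-seq was measured in 12 libraries, 3 in each of 4 groups taken from the labels. RNA was extracted with the RNeasy Plus kit, per the labels' protocols. The authors deposited log2 values: 12493 entries of log2 CPM in 2 tables that agreed within a difference of 0. The submitters' processing notes name limma, edgeR, featureCounts 1.4.6-p5, Subread, STAR 2.5.1a and bcl2fastq without their roles. Genome build and strandedness: not given in the sources used here. Without strand, reads of overlapping antisense genes cannot be told apart. After 52 repeated entries were taken once, 12441 genes remained, and all were found in GENCODE M21 (GRCm38), which gave positions. The values are log2 CPM from reads plus 0.5 over an effective library size: 100% of values under 200 reads came within 0.01 of a whole read. A floor of 3 reads per library stands for 0 reads, for counting error only. Mitochondrial shares were taken of the reads in the table, with 95% Wilson intervals such as 0.447% to 0.451% for WT unstimulated replicate 1. They cover counting error only, since these reads carry no molecular identifiers.

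One linear model of 4 group means was fitted per gene with limma 3.58.1 in R 4.3.3 (eBayes with trend and robust, 8 residual degrees of freedom), with two-sided tests, Benjamini-Hochberg adjustment over 11918 genes, and a threshold of 0.05. Tests were also run on simulated counts, drawn independently for each library with the same relative spread for every gene. That run does not show how the p-values behave in these libraries. The labels do not say that replicates were separate mice or cultures, so the p-values reflect the spread among these libraries, which may be technical. A gene counts as raised or lowered by LPS in a genotype when it passed that test. The classes of genes raised or lowered at least 2-fold rest on the mean response over both genotypes, with an adjusted p under 0.05 and at least 1 log2 unit.

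The 38 gene lists, the members and the tests were chosen with earlier results of these data known. Named genes are Coq6, the 12 smallest p in each direction among genes averaging 1 log2 CPM or more in some group and without a predicted, clone or pseudogene name (none passed), the members of the lists of LPS anchors and of genes called earlier between genotypes, and up to 3 of every other list by smallest p. Of these 141 a selection is printed beside further members of lists, and a few are not reported here. Other genes were chosen after their values were seen, and list members outside the rule are given as examples. Same-numbered libraries of different groups were compared by correlating their deviations from the group mean. For replicates 1, 2 and 3 in turn, resting D316Y against resting WT gave 0.606, 0.527 and 0.154. LPS-treated WT gave 0.34, 0.163 and -0.0302 against resting WT, and 0.388, 0.166 and 0.0383 against resting D316Y. LPS-treated D316Y reached at most 0.0567 against any other group. Whether equal numbers mark a shared mouse, culture or day was not tested. Alternatives covered moderation, filters, scaling, library weights, blocks, a mitochondrial covariate and leaving out libraries. Promoter sequences are from RefSeq (GRCm38.p6).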

Additional observations from a re-analysis of the deposited data

How the results depend on the processing

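Under all 24 alternatives limma called 0 genes for the interaction, which had between 134 (without D316Y LPS replicate 2) and 1468 (estimated library weights) at an unadjusted p under 0.05, against 251. With the replicate block the genotype by LPS interaction had 306, the LPS response in WT 4709 calls and the LPS response in D316Y 4882. A block within each genotype gave 214 and one within each condition, added after the data were seen, 511. The mitochondrial covariate gave 619. The estimated library weights were 5.98 for WT unstimulated replicate 3 and 4.65 for WT LPS replicate 3. For WT replicates 1 and 2 they were 0.207 and 0.924 without LPS, and 0.535 and 0.386 with it. The weighted WT response thus rests mainly on replicate 3. Library weights raised the calls for LPS in WT to 7552 from 4347 and turned Mertk to -0.47 from 0.11. The cause of these shifts was not tested. The block within each condition gives no LPS response, since LPS is compared between its blocks. Leaving out 1 library gave 3571 to 4637 calls in WT and 3647 to 4934 in D316Y. For 86 of the 141 genes of the naming rule, leaving out 1 library moved the interaction by over 1.5 times or turned its sign. The planned edgeR and DESeq2 fits were not run, because the deposited unit is log2; limma-voom on recovered reads, added after the data were seen, took their place. The typical interval of 1.56-fold to either side limits what 3 libraries per group can show.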
